A study of Mus musculus with 2 samples.

Results

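Among the tumour cells of 4T1 tumours, 1149 of 11491 had the highest summed level of 5 transcripts, Lgals7, Lif, Bdnf, H19 and Nr2f1, and these are called high-score cells here. Tumour cells were barcodes with at least 3000 UMIs (unique molecular identifiers, each standing for 1 captured transcript), at most 20% mitochondrial UMIs, at least 5 UMIs of Krt8 and Krt18 together and at least 10 per 10000, no UMI of Ptprc, less than 20 per 10000 of Col1a1 and Col3a1 and less than 50 per 10000 of S100a8 and S100a9. The score of a cell was the number of UMIs of the 5 genes per 10000 UMIs, and the highest 10% over both libraries pooled were taken. High-score cells numbered 672 of 3380 tumour cells in the AptCD4-LNT library and 477 of 8111 in the Untreated library, out of 28971 barcodes in all. The score is continuous, so the cells are a range and not a cell type. The lowest score taken was 5.16173 and the highest left out 5.16129, with 294 high-score cells within 20% above the limit and 464 cells within 20% below it.

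The tumours were grown from 4T1, a mouse triple-negative breast carcinoma line, in BALB/c mice. AptCD4-LNT mice received AptCD4-LNT in 3 doses of 5000000, 4000000 and then 3000000 cells, 3 days apart, and Untreated mice received PBS; the series addresses mobilising and activating CD4+ T cells. Tumours were collected at day 9, and 3 tumours of each group were mixed into 1 10x Genomics library, so there are no replicates and nothing was tested against variation between mice. Every interval below is an exact 95% interval and covers counting error only.

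LIF is a cytokine of the interleukin-6 family that signals through LIFR and gp130 to STAT3. BDNF is a neurotrophin whose receptors are TrkB (Ntrk2) and p75 (Ngfr). Galectin-7, encoded by Lgals7, is a galactoside-binding lectin of stratified epithelia, H19 is an imprinted long non-coding RNA of embryonic tissues, and Nr2f1 encodes an orphan nuclear receptor that has been linked to tumour cell dormancy.

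The AptCD4-LNT library held 98968100 UMIs and the Untreated library 131295224. AptCD4-LNT tumour cells were sequenced more deeply, their median UMIs being 17106.5 in high-score cells and 17856.5 in other tumour cells, against 6772 and 8239 in the Untreated library. Mitochondrial UMIs were close to each other, with medians of 2.29% and 2.31% in high-score and other tumour cells of the AptCD4-LNT library and 2.39% and 2.22% in the Untreated library. The libraries shared 42 barcodes, of which 6 were tumour cells and 0 high-score cells. Summed over 8 epithelial markers, high-score cells stood at 4460 CPM (counts of a gene scaled to 1000000 UMIs, after summing over the cells of a group) and other tumour cells at 5200 in the AptCD4-LNT library, and at 4218 and 5314 in the Untreated library. The levels of 8 macrophage markers were 40.0 and 47.9 CPM in high-score and other tumour cells of the AptCD4-LNT library and 133 and 135 CPM in the Untreated library, and those of 7 fibroblast markers were 263 and 241 CPM, and 111 and 97.8 CPM. The 6 neutrophil markers summed to 78.9 and 78.4 CPM, and to 96.5 and 129 CPM, and the 6 T cell markers to 2.46 and 2.21 CPM, and to 7.04 and 4.67 CPM. All 4 B cell markers were at 0 in high-score cells. Of 7 markers of skin keratinocytes, cells in which galectin-7 is abundant, 4 were at 0 in high-score cells of each library (Krt1, Lor, Flg and Krtdap), and the list summed to 19.04 and 25.3 CPM in the AptCD4-LNT library and to 22.2 and 26.7 CPM in the Untreated library.

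High-score cells were a larger part of the AptCD4-LNT tumours. There, 19.9% of tumour cells were high-score cells (18.5 to 21.3%), against 5.88% in the Untreated library (5.38 to 6.42%), a 3.38-fold higher share (3.00 to 3.81). The whole distribution of the score was higher, with a mean of 3.19 in AptCD4-LNT tumour cells and 1.54 in Untreated tumour cells and medians of 1.68 and 0.872. At a score of 10 or more, the shares were 6.89% in AptCD4-LNT and 1.16% in Untreated tumour cells. Because the depths differed, each tumour cell was also thinned to 3000 UMIs. At that depth a cell averaged 0.968 UMIs of the 5 genes in the AptCD4-LNT library and 0.465 in the Untreated library, and 11.8% (10.7 to 12.9%) and 2.87% (2.52 to 3.26%) held 3 or more. The highest 10% at the thinned depth were 18.2% of AptCD4-LNT and 6.60% of Untreated tumour cells, a 2.75-fold higher share, with 367 and 513 cells tied at the limit and chosen among at random.

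**Figure D1:**
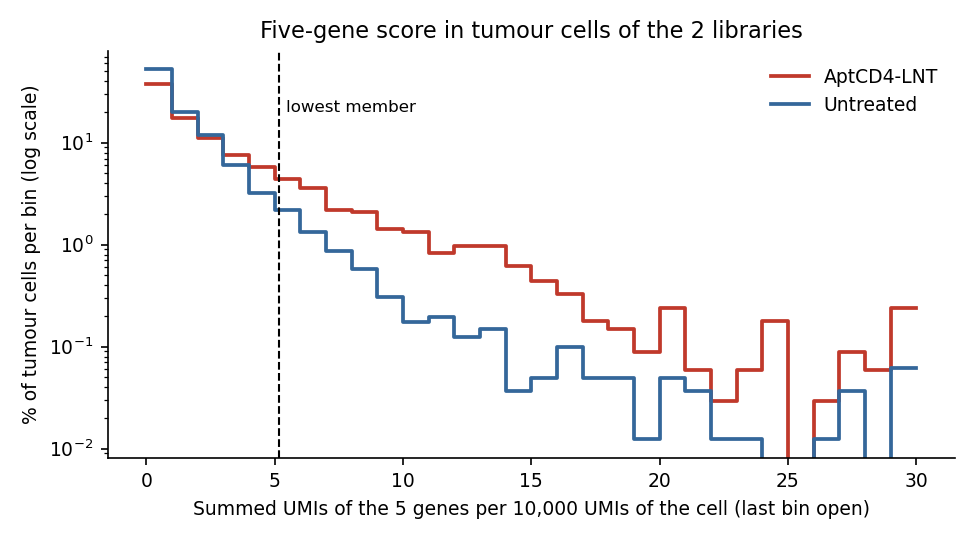
Distribution of the 5-gene score (summed UMIs of Lgals7, Lif, Bdnf, H19 and Nr2f1 per 10000 UMIs of a cell, x axis) as the percent of tumour cells per bin (log y axis) in the AptCD4-LNT and the Untreated library. The dashed line is the lowest score of a high-score cell, and the AptCD4-LNT line lies above the Untreated line beyond it, with 19.9% against 5.88% of tumour cells to its right.

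The 5 genes chose the cells, so their levels in them are a description. Lgals7 stood at 337 CPM in high-score cells and 21.5 CPM in other tumour cells of the AptCD4-LNT library, and at 186 and 12.6 CPM in the Untreated library. Lif stood at 218 and 52.7 CPM in the AptCD4-LNT library and at 107 and 27.9 CPM in the Untreated library. Bdnf stood at 118 and 29.9 CPM, and at 107 and 23.4 CPM. The steepest ratio in both libraries belonged to H19 or Lgals7, since H19 stood at 168 and 10.9 CPM in the AptCD4-LNT library and at 247 and 7.52 CPM in the Untreated library. Nr2f1 stood at 124 and 38.5 CPM and at 205 and 40.4 CPM.

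Sequences at the start of 3 of the 5 genes are shown because some AP-1 genes were also higher in these cells and AP-1 factors bind a short palindrome. Windows of 250 bases before to 50 after an annotated start were taken from RefSeq on build GRCm38.p6, and TGANTCA (AP-1), TGACGTCA (the cyclic AMP response element) and TTCNNNGAA (STAT) were searched on both strands. The Lif window, chr11:4257318-4257617 on the plus strand, held 1 TGANTCA at position -228 relative to the start. Of 7 Bdnf windows, that at chr2:109676782-109677081 on the plus strand held 1 at -152, and another held 1 TTCNNNGAA. The Lgals7 window, chr7:28864136-28864435 on the plus strand, held none of the 3 motifs, nor did the 2 Nr2f1 windows. H19 had 0 windows in the set used and was not searched. Of 32851 windows of all genes, 7.81% held TGANTCA, 1.79% TGACGTCA and 8.30% TTCNNNGAA, so a match is common and describes only these letters. Capitals mark TGANTCA.
Lif: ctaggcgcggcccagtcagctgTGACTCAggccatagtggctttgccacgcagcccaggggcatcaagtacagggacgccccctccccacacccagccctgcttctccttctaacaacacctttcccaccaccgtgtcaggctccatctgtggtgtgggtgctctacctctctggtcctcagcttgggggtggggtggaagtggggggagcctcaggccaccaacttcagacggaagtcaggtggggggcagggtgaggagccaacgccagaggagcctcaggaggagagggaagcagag
Bdnf: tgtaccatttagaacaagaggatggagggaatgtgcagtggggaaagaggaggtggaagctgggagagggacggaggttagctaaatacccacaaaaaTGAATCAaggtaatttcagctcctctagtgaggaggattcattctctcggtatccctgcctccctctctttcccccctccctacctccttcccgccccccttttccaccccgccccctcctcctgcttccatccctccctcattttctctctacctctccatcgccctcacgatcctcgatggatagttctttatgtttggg
Lgals7: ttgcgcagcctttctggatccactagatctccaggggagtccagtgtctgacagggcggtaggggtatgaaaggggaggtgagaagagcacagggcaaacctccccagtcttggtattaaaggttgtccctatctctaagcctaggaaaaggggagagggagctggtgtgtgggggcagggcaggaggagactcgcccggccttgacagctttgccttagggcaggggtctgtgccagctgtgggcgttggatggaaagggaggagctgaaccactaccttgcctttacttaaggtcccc

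In the UMIs that chose the cells, the make-up of the score differed between the libraries, which also differed in depth. Of the UMIs of the 5 genes in AptCD4-LNT high-score cells, 34.9% were Lgals7 and 22.6% Lif, while in Untreated high-score cells 29.0% were H19 and 24.1% Nr2f1. Lgals7 had the most UMIs in 250 of 672 AptCD4-LNT high-score cells (37.2%) and in 100 of 477 Untreated ones (21.0%). Nr2f1 led in 66 (9.82%) of the AptCD4-LNT and 122 (25.6%) of the Untreated high-score cells, Lif in 177 (26.3%) and 51 (10.7%), H19 in 102 (15.2%) and 93 (19.5%), and Bdnf in 40 (5.95%) and 36 (7.55%). These shares come from the UMIs that chose the cells, and Bdnf, though in the name Lif Bdnf Lgals7, gave 12.2% and 12.6% of them. The cells are therefore called by their score. The order of the genes was also read in cells chosen on 1 random part of their UMIs and measured on the other. There Lgals7, Lif and H19 led in AptCD4-LNT cells, at 344, 201 and 167 CPM. In Untreated cells H19, Lgals7 and Nr2f1 led, at 177, 136 and 106 CPM. At least 3 of the 5 genes had a UMI in most AptCD4-LNT high-score cells, with 239 cells holding 3, 225 holding 4 and 67 holding all 5, whereas 139, 43 and 5 of the shallower Untreated high-score cells did so.

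The percent of cells with a UMI showed the same genes against the depth. Lgals7 had a UMI in 67.4% of high-score and 19.6% of other tumour cells of the AptCD4-LNT library, against 0.960% of its 729 blood cells, which should lack the gene and had a median of 5769 UMIs. In the Untreated library it had one in 41.9% of high-score cells, 8.49% of other tumour cells and 0.469% of 1280 blood cells with a median of 4865.5 UMIs. Lif had a UMI in 75.7% of AptCD4-LNT and 38.6% of Untreated high-score cells, against 6.17% and 2.34% of blood cells. Bdnf was found in 73.1% and 48.8% of high-score cells and in 0.549% and 0.625% of blood cells, and H19 in 36.5% and 31.4% of high-score cells and in 1.23% and 1.09% of blood cells. Other tumour cells often held these genes too. Lif had a UMI in 45.4% of them in the AptCD4-LNT and 20.4% in the Untreated library. Bdnf did in 33.1% and 18.4%, H19 in 9.60% and 4.48%, and Nr2f1 in 42.4% and 28.6%. After thinning to 3000 UMIs the high-score shares were 43.6% in the AptCD4-LNT and 29.1% in the Untreated library for Lgals7, 40.3% and 25.4% for Lif, 29.0% and 28.1% for Bdnf, 20.4% and 23.3% for H19, and 29.5% and 48.4% for Nr2f1. Nr2f1 was in 75.6% of AptCD4-LNT and 70.4% of Untreated high-score cells at full depth, and the order of the libraries was the other way round after thinning. The thinned shares are of the cells chosen at full depth, on UMIs that include those counted here. Because the choice was made at unequal depths, no difference between libraries is drawn from them.

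A measure that did not choose the cells was had by leaving each gene out of the score in turn. In cells chosen by the other 4 genes, Lgals7 was 1.35 higher on the log2 scale than in the remaining tumour cells of the AptCD4-LNT library (1.27 to 1.43) and 1.48 higher in the Untreated library (1.27 to 1.68). Bdnf was 1.39 (1.28 to 1.5) and 1.10 (0.90 to 1.30) higher, Nr2f1 1.07 (0.97 to 1.17) and 0.94 (0.78 to 1.11), H19 1.44 (1.33 to 1.55) and 0.62 (0.32 to 0.90), and Lif 0.93 (0.84 to 1.01) and 0.34 (0.11 to 0.55). All 10 intervals lay above 0, and the value nearest to 0 was that of Lif in the Untreated library. The cells and their score were chosen with earlier results of these data known. The values therefore describe these genes and are no independent test that the genes go together. When the UMIs of each cell were split at random and cells were chosen on one part, Lgals7 in the other part was 3.49 higher in the AptCD4-LNT and 3.32 higher in the Untreated library, H19 3.43 and 4.14, Lif 1.74 and 1.25, Bdnf 1.57 and 1.39, and Nr2f1 1.35 and 1.28. Both parts chose 413 of the 595 AptCD4-LNT cells taken by the first part (69.4%) and 189 of the 554 Untreated cells (34.1%). The libraries differ both in depth and in the share of tumour cells chosen, 18.8% and 6.35%, and the part of each in this overlap was not tested.

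**Figure D2:**
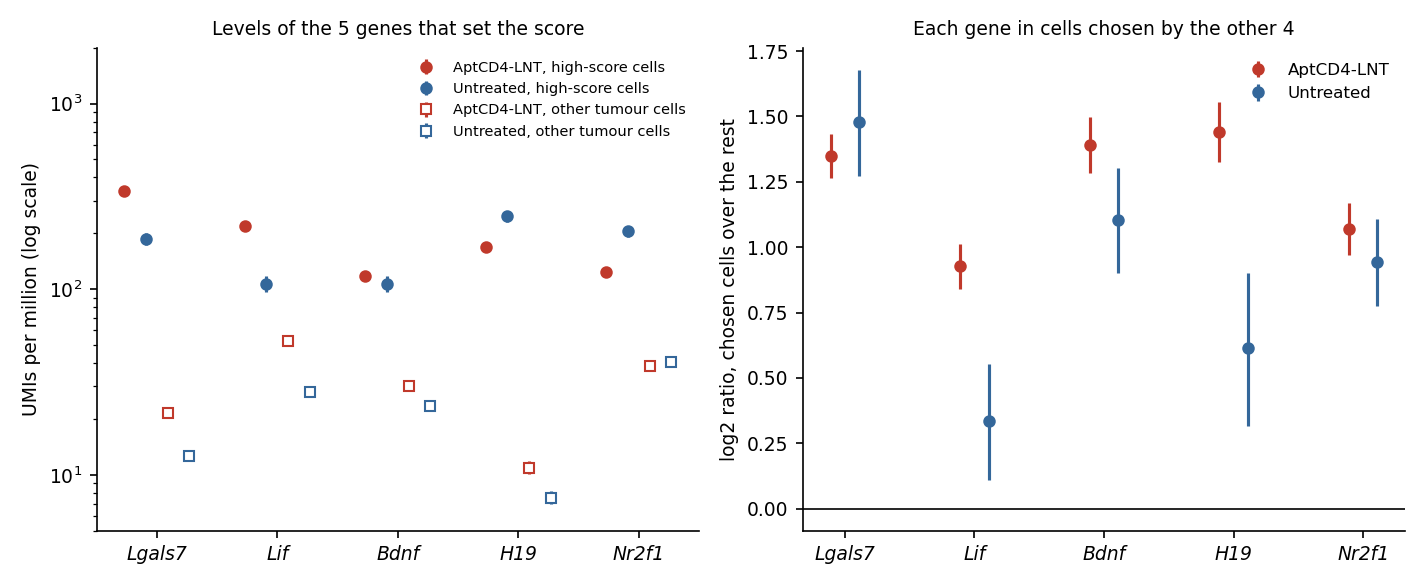
Left, level of each of the 5 genes that set the score (CPM, log y axis) in high-score cells (filled) and other tumour cells (open) of the AptCD4-LNT and Untreated libraries; bars are exact 95% Poisson intervals and mostly lie within the points. Right, log2 ratio of each gene in cells chosen by the other 4 genes over the remaining tumour cells, with exact 95% intervals, which lie above 0 for all 5 genes in both libraries.

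Cells in the highest 10% for 1 gene, with at least 1 UMI of it, were compared with the remaining tumour cells for each other gene, which gives 20 ordered pairs a library. The genes are those of the score, chosen with earlier results known, so the pairs are also a description. In the AptCD4-LNT library all 20 log2 ratios had an interval above 0, and they ran from 0.54 to 1.32. In the Untreated library 17 did, and the 3 that reached 0 all concerned Lif: Lif in Lgals7-high cells at 0.06 (-0.17 to 0.28), Lgals7 in Lif-high cells at -0.02 (-0.35 to 0.28) and Lif in H19-high cells at -0.03 (-0.26 to 0.18). The same 3 pairs were at 0.79 (0.70 to 0.88), 1.01 (0.92 to 1.10) and 0.54 (0.45 to 0.63) in the AptCD4-LNT library. In the Untreated library Lgals7 was 1.36 higher in Bdnf-high cells (1.16 to 1.54) and Bdnf 0.88 higher in Lgals7-high cells (0.68 to 1.07), and Lgals7 was 1.31 higher in Nr2f1-high cells (1.12 to 1.49) and Nr2f1 0.96 higher in Lgals7-high cells (0.82 to 1.10).

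Over all tumour cells, high-score or not, Lgals7 stood at 80.5 CPM in the AptCD4-LNT library and 20.7 CPM in the Untreated library, a log2 ratio of 1.96 (1.88 to 2.04). Lif stood at 83.7 and 31.6 CPM (1.41, 1.34 to 1.48), H19 at 40.3 and 18.7 CPM (1.11, 1.02 to 1.20), Bdnf at 46.5 and 27.4 CPM (0.76, 0.68 to 0.84) and Nr2f1 at 54.4 and 48.1 CPM (0.18, 0.11 to 0.25). Within high-score cells, which a common limit of the score chose in both libraries, Lif was 1.03 (0.88 to 1.19) and Lgals7 0.86 (0.74 to 0.97) higher in the AptCD4-LNT library, Bdnf was at 0.14 (-0.02 to 0.30), and H19 and Nr2f1 were at -0.55 (-0.67 to -0.44) and -0.73 (-0.85 to -0.60). The Nr2f1 value was 0.07 in cells chosen without Nr2f1 and 0.11 when the cells were chosen on other UMIs than those measured. In cells chosen without H19, H19 stood at 83.0 CPM in the AptCD4-LNT and 28.0 CPM in the Untreated library. When the cells were chosen on other UMIs, it stood at 167 and 177 CPM. For these 2 genes no direction between libraries is therefore given. The other ratios within high-score cells also come from the UMIs that chose the cells. The 0.14 of Bdnf is therefore not read as no difference. In cells chosen without Bdnf, it stood at 94.0 CPM in the AptCD4-LNT and 55.6 CPM in the Untreated library. On other UMIs it stood at 105 and 65.6 CPM. By the same 2 measures Lif stood at 139 and 39.2 CPM, and at 201 and 67.4 CPM. Lgals7 stood at 165 and 52.6 CPM, and at 344 and 136 CPM.

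Beyond the 5 genes, high-score cells were compared with other tumour cells of the same library. These genes were read in the very cells that the score chose, so the values describe the cells and no test was made. A gene was measured where at least 10 UMIs were expected in the smaller group and called where it was past 1.5-fold. In the AptCD4-LNT library 592 of 13149 measured genes were higher (4.5%) and 1185 lower (9.01%), and in the Untreated library 315 of 11043 were higher (2.85%) and 767 lower (6.95%). In both libraries the same way, 125 of 11031 genes were higher (1.13%) and 320 lower (2.9%), or 161 higher and 256 lower when ratios were centred on the median gene. Across 11028 genes the ratios of the 2 libraries had a Pearson r of 0.586 and a Spearman rho of 0.527. The median over all measured genes was -0.08 in the AptCD4-LNT and -0.04 in the Untreated library on the log2 scale.

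The genes highest in high-score cells of both libraries, taken by the log2 ratio nearer to 0 among genes outside the lists below, included secreted and matrix proteins. Ctla2a, a cathepsin L inhibitor, stood at 245 CPM in high-score and 72.8 CPM in other tumour cells of the AptCD4-LNT library and at 113 and 34.3 CPM in the Untreated library, log2 ratios of 1.75 (1.68 to 1.82) and 1.72 (1.57 to 1.87). Mgp, matrix Gla protein, an inhibitor of mineralisation, stood at 1514 and 542 CPM and at 1695 and 658 CPM (1.48 and 1.36). Vcam1, an adhesion molecule that binds integrins of leukocytes, stood at 430.2 and 177 CPM and at 379 and 178 CPM (1.28 and 1.09). Serpine2, a protease inhibitor also called protease nexin-1, was at 80.7 and 32.4 CPM and at 142 and 32.9 CPM (1.32 and 2.11). Kitl, the ligand of the KIT receptor, stood at 59.3 and 29.4 CPM and at 36.8 and 17.6 CPM (1.01 and 1.07). Others of the 15 were Col4a5, a basement membrane collagen chain, with 1.32 in the AptCD4-LNT and 1.89 in the Untreated library, the bicarbonate transporter Slc4a4 (1.27 and 1.66), the clotting factor subunit F13a1 (1.25 and 1.63), Phactr1 (1.28 and 1.26), Rgs2 (1.24 and 1.12), Rhoj (1.24 and 1.05), Pogk (1.08 and 1.24) and the transcription regulators Foxc2 (1.03 and 1.08) and Id2 (1.07 and 1.01).

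Outside the lists, the genes lowest in high-score cells of both libraries were led by Cxcl9, an interferon-gamma-induced chemokine for T cells, at 9.44 CPM in high-score and 29.0 CPM in other tumour cells of the AptCD4-LNT library and 25.8 and 136 CPM in the Untreated library (-1.62 and -2.39). Nos2, inducible nitric oxide synthase, stood at 15.7 and 61.1 CPM and at 38.1 and 86.4 CPM (-1.96 and -1.18). Tnc, the matrix protein tenascin C, stood at 30.9 and 64.8 CPM and at 17.0 and 42.9 CPM (-1.07 and -1.34), and Lama3, a laminin chain of epithelial basement membranes, at 13.4 and 45.0 CPM and at 17.7 and 37.2 CPM (-1.75 and -1.07). The others of the 15 were Xlr (-1.47 and -2.24), Il18rap (-1.55 and -1.44), Slc4a11 (-1.46 and -1.19), Ly6c1 (-1.41 and -1.14), Espn (-1.49 and -0.96), the class II chain gene H2-Ea (-1.01 and -0.91), Pimreg (-1.07 and -1.12), the epithelial trafficking GTPase gene Rab25 (-0.95 and -1.29), Kifc3 (-0.98 and -1.01), the histone chaperone gene Asf1b (-0.90 and -1.28) and Wnt10a (-0.89 and -1.22), each given for the AptCD4-LNT and then the Untreated library.

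**Figure D3:**
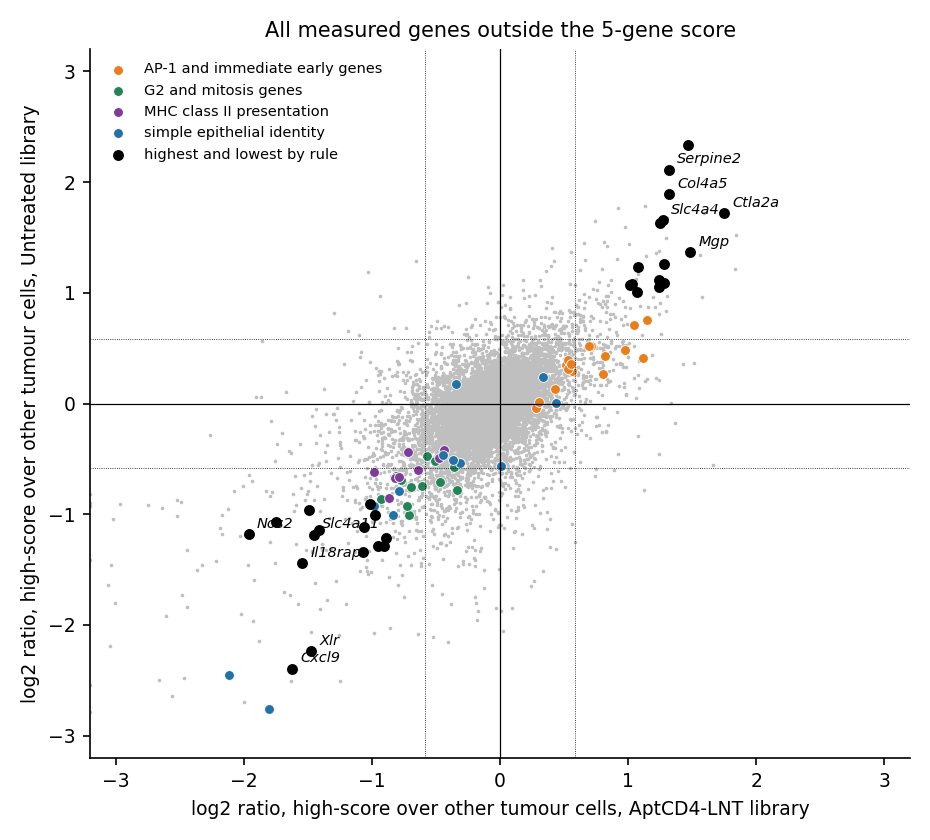
Log2 ratio of high-score over other tumour cells for each gene measured in both libraries, in the AptCD4-LNT library (x axis) and the Untreated library (y axis); points beyond the axes are drawn at their edge. Dotted lines mark 1.5-fold, black points are the 15 highest and 15 lowest genes by rule, with 5 of each labelled, and the epithelial, G2 and mitosis and class II genes lie mostly in the lower left while the AP-1 genes lie mostly right of 0.

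Some genes of the simple epithelial programme were lower. Of 12 measured, 5 were lower in high-score cells in both libraries and 0 higher, with list medians of -0.41 in the AptCD4-LNT and -0.55 in the Untreated library. Cldn3, a tight junction claudin, stood at 24.4 CPM in high-score and 106 CPM in other tumour cells of the AptCD4-LNT library and at 25.6 and 140.2 CPM in the Untreated library (-2.12 and -2.46). Krt7 stood at 325 and 561 CPM and at 344 and 596 CPM (-0.79 in each), Krt19 at 55.3 and 109.7 CPM and at 79.1 and 149.9 CPM (-0.99 and -0.92), and the others of the 5 were Cldn7 (-1.81 and -2.76, on 23 and 7 UMIs in high-score cells) and the splicing factor gene Esrp1 (-0.84 and -1.01). Epcam, an adhesion molecule of epithelia, was at 654 and 812 CPM and at 748 and 1082 CPM, within 1.5-fold. No mesenchymal transition gene passed 1.5-fold upward in either library, with medians of 0.26 in the AptCD4-LNT library over 10 measured and 0.20 in the Untreated library over 9. Twist1, a transcription factor of that programme, was at 0.58 and 0.48, and Vim at 0.14 and 0.12.

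The basal and stratified keratin genes, which galectin-7 accompanies in skin, were not higher as a list. Of 11 measured in both libraries 3 were lower in both and 1 higher. Krt17 stood at 27.2 CPM in high-score and 84.1 CPM in other tumour cells of the AptCD4-LNT library and at 25.05 and 142 CPM in the Untreated library (-1.63 and -2.50), Krt14 was at -0.92 and -1.42, and Sfn, the p53-induced 14-3-3 sigma of epithelia, at -0.80 and -1.01. The 1 gene higher was Klf4, a transcription factor of epithelial differentiation, at 399 and 163 CPM and at 184 and 103 CPM (1.29 and 0.84). Krt6a had 0 UMIs in all tumour cells. The cells with the highest 10% of Krt5, Krt14, Krt6a and Krt17 included 6.99% of high-score and 12.6% of other tumour cells in the AptCD4-LNT library, and 2.31% and 9.82% in the Untreated library.

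Some proliferation genes were lower. Of 12 G2 and mitosis genes, 7 were lower in high-score cells in both libraries and 0 higher, with medians of -0.65 in the AptCD4-LNT and -0.72 in the Untreated library. Birc5, which encodes survivin, stood at 101 CPM in high-score and 193 CPM in other tumour cells of the AptCD4-LNT library and at 132 and 239 CPM in the Untreated library (-0.93 and -0.86). Ube2c, a ubiquitin-conjugating enzyme of the anaphase-promoting complex, was at -0.70 and -0.75. Of 12 S phase genes 3 were lower in both libraries, Rrm2 (-1.13 and -0.87), Ung (-1.18 and -1.03) and Cdc6 (-1.04 and -1.11). Over the 5 bands of the score the summed level of the 12 G2 and mitosis genes did not run one way in either library. It was 878, 1477, 1292, 996 and 667 CPM in AptCD4-LNT cells and 1327, 1789, 1179, 805 and 1280.0 CPM in Untreated cells, with 94 cells in the last of these bands. The medians of the G2 and mitosis list ranged from -0.96 to -0.25 in the AptCD4-LNT library and from -1.08 to -0.22 in the Untreated library over the alternatives. The values nearest to 0 were without Lif in the score and with thinned cells. The highest 10% of tumour cells by the 12 G2 and mitosis genes held 5.36% of high-score and 8.68% of other cells in the AptCD4-LNT library, and 5.87% and 11.1% in the Untreated library.

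Of the genes of plasminogen activation and matrix proteolysis, several matrix metalloproteinases and Plau were lower. Of 11 measured in the AptCD4-LNT library 7 were lower and 1 higher, with a median of -1.26, and of 10 measured in the Untreated library 4 were lower and 0 higher, with a median of -0.24. Mmp9, a gelatinase, stood at 70.6 CPM in high-score and 354 CPM in other tumour cells of the AptCD4-LNT library and at 96.0 and 263 CPM in the Untreated library (-2.33, -2.43 to -2.23, and -1.46, -1.61 to -1.31). Mmp13, a collagenase, stood at 24.0 and 187 CPM and at 65.2 and 123 CPM (-2.97 and -0.91), and Plau, urokinase, at 55.5 and 90.5 CPM and at 52.2 and 101 CPM (-0.71 and -0.95). The 1 gene higher was Plat, tissue plasminogen activator, at 0.77 in the AptCD4-LNT and -0.20 in the Untreated library, and Plaur, the urokinase receptor, was within 1.5-fold (-0.27 and -0.08). Mmp9 also stands among 5 osteoclast markers, which summed to 95.4 and 390.2 CPM in the AptCD4-LNT library and to 133 and 312 CPM in the Untreated library. Their next most counted member, Acp5, stood at 22.4 and 34.0 CPM and at 35.0 and 45.9 CPM, and 2 of the 5 were at 0 in Untreated high-score cells. The part of other cell types in these levels was not tested. Mmp12 was the other gene lower in both, on 8 and 51 UMIs in high-score cells. Mmp3, a stromelysin, differed by library, at 29.8 and 112 CPM in the AptCD4-LNT library (-1.91) and at 103 and 99.0 CPM in the Untreated library (0.06), and the difference was not tested.

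Of 16 AP-1 and immediate early genes, which mitogens and stress induce rapidly, 8 were higher and 0 lower in the AptCD4-LNT library, with a median of 0.63, and 2 were higher and 0 lower in the Untreated library, with a median of 0.38. The 2 that were higher in both were the receptor gene Nr4a1, at 186 CPM in high-score and 84.1 CPM in other tumour cells of the AptCD4-LNT library and at 61.6 and 36.5 CPM in the Untreated library (1.14 and 0.75), and the antiproliferative gene Btg2, at 685 and 332 CPM and at 336 and 206 CPM (1.04 and 0.71). Atf3, a stress-induced repressor, stood at 892 and 410.5 CPM and at 331 and 248 CPM (1.12 and 0.42), Jun at 1562 and 954 CPM and at 892 and 621 CPM (0.71 and 0.52), and Fos at 3279 and 2291 CPM and at 2501 and 1963 CPM (0.52 and 0.35). Along the score, the summed level of the 16 genes was 11091, 13154, 16929, 20485 and 22263 CPM over 5 bands of AptCD4-LNT cells and 9807, 10497, 11599, 12906 and 13104 CPM over those of Untreated cells.

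**Figure D4:**
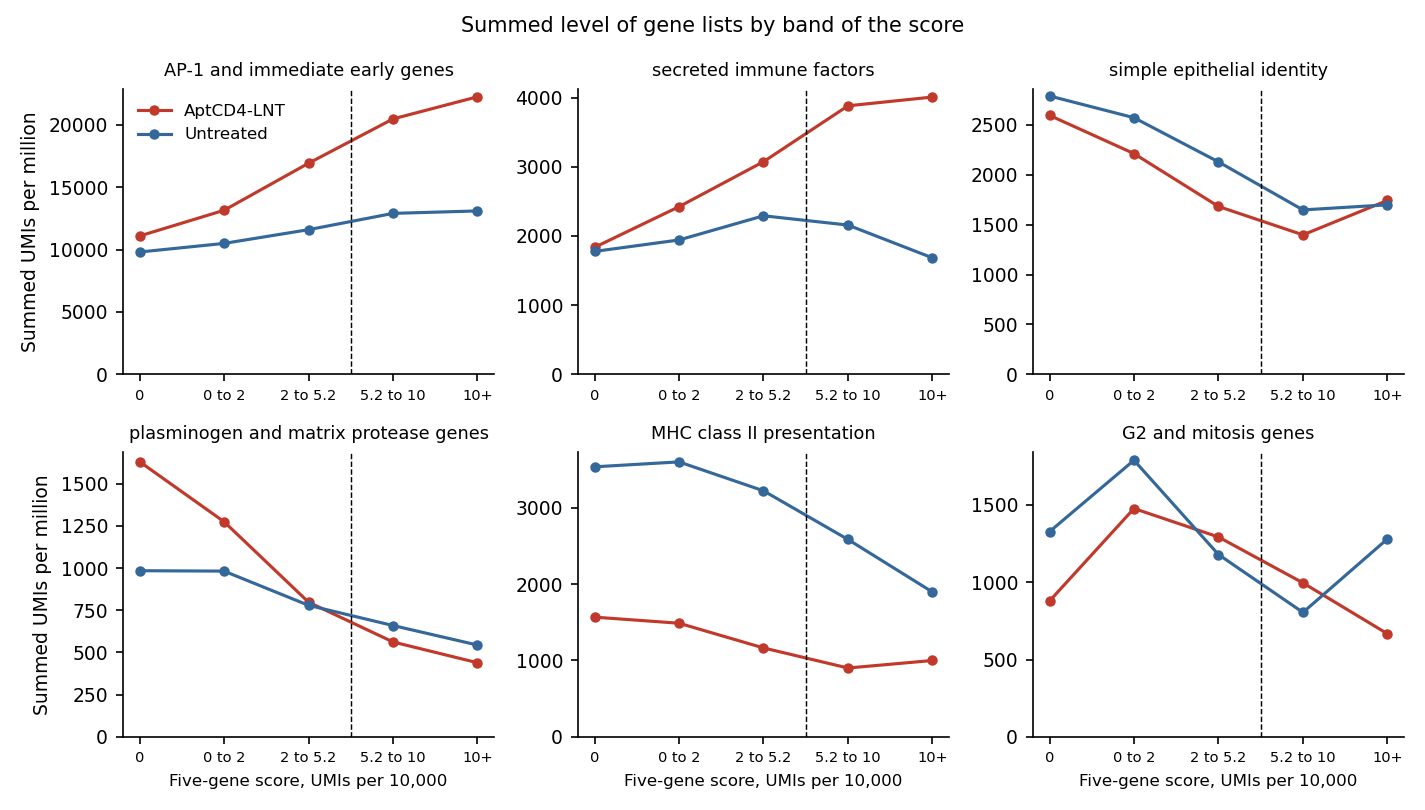
Summed level of 6 gene lists (CPM, y axis) in 5 bands of the 5-gene score from 0 to 10 or more UMIs per 10000 (x axis) in AptCD4-LNT and Untreated tumour cells; the dashed line separates other tumour cells from high-score cells. AP-1 genes climb to 22263 CPM in the AptCD4-LNT library and 13104 CPM in the Untreated library, protease genes decline, and the highest Untreated band has 94 cells. Class II genes go from 1567 CPM in the first to 999 CPM in the last AptCD4-LNT band, and from 3535 to 1896 CPM in Untreated cells, not falling at every step.

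Few genes of the pathways that the 5 genes belong to stood out with them. Of 9 gp130 receptor and STAT3 feedback genes measured in both libraries 1 was higher in both and 0 lower: Pim1, a STAT-induced kinase gene, at 201 CPM in high-score and 84.2 CPM in other tumour cells of the AptCD4-LNT library and 125 and 80.9 CPM in the Untreated library (1.26 and 0.62). Socs3, the feedback inhibitor of STAT3 signalling, was at 0.26 and 0.45, and Il6st, which encodes gp130, at 0.14 and 0.32, both within 1.5-fold. Lifr had 13 UMIs in AptCD4-LNT and 11 in Untreated high-score cells, too few to be measured. Of the other ligands of the family 0 of 4 measured in both libraries were called in both, and Clcf1 was nearest, at 0.47 and 0.51.

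For the BDNF receptors, Ntrk2 had 3 UMIs in AptCD4-LNT and 1 in Untreated high-score cells, and Ngfr had 24 and 3. The neurotrophin and GDNF list had 1 gene called in both libraries, Ngfr, and it was lower (-0.64 and -2.08). Among 5 galectins measured in both, Lgals3 was lower, at 378 CPM in high-score and 633 CPM in other tumour cells of the AptCD4-LNT library and 503 and 784 CPM in the Untreated library (-0.74 and -0.64), and Lgals1 was within 1.5-fold (0.07 and 0.28). Igf2, which shares an imprinted domain with H19, had 0 UMIs in high-score cells of either library, and none of 5 imprinted genes measured in both libraries was called in both. Igf2r, which encodes the receptor that clears IGF2, was nearest, at 0.56 and 0.66. Of 10 genes associated with tumour cell dormancy 1 was higher and 0 lower in both libraries. The gene higher was Sox9, a transcription factor downstream of NR2F1, at 368 and 214 CPM and 249.96 and 161 CPM (0.78 and 0.63). Bmp7 ran the other way, at -1.47 and -0.56, and the cell cycle inhibitor gene Cdkn1b was at 0.15 in each. In the AptCD4-LNT library alone, 2 of 11 measured were higher and 2 lower.

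Of 4 bone-matrix genes measured in both libraries, 2 were higher in both and 0 lower, and in the AptCD4-LNT library 1 of 5 was lower, Phex, on 5 UMIs in high-score cells. Ibsp, bone sialoprotein, stood at 105 CPM in high-score and 63.2 CPM in other tumour cells of the AptCD4-LNT library and at 411 and 131 CPM in the Untreated library (0.74, 0.64 to 0.83, and 1.65, 1.57 to 1.73). Dmp1, dentin matrix protein 1, was at 93.5 and 45.3 CPM and at 75.4 and 46.4 CPM (1.04 and 0.70), and Spp1, osteopontin, was within 1.5-fold (0.24 and 0.37). The highest 10% of tumour cells by Ibsp and Dmp1, which also number 1149, shared 197 cells with the high-score cells, or 17.1% of each set. They held 9.97% of high-score and 5.58% of other tumour cells of the AptCD4-LNT library, and 27.3% and 10.5% of those of the Untreated library.

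Of 8 class II presentation genes, 5 were lower in high-score cells of both libraries, with medians of -0.75 in the AptCD4-LNT and -0.61 in the Untreated library. H2-Aa stood at 186 CPM in high-score and 290.4 CPM in other tumour cells of the AptCD4-LNT library and at 493 and 748 CPM in the Untreated library (-0.64 and -0.60). Of 9 class I genes 0 were called in either library, with medians of 0.01 and -0.05. Of 16 interferon response genes 2 were lower in both, Rsad2 and Usp18, and Irf1 and Cxcl10 passed 1.5-fold in the AptCD4-LNT library, at 1.04 and 1.19, against 0.23 and 0.44 in the Untreated library, a difference that was not tested. Of 14 hypoxia and glycolysis genes 1 was lower in both, Adm, adrenomedullin (-1.94 and -0.70), and the highest 10% by this list held 0.744% of high-score and 6.94% of other tumour cells in the AptCD4-LNT library and 6.71% and 12.1% in the Untreated library.

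The AptCD4-LNT library was then set over the Untreated library within high-score cells, with the same ratio in other tumour cells beside it. In high-score cells 891 of 10979 measured genes were higher in the AptCD4-LNT library (8.12%) and 645 lower (5.87%), and in other tumour cells 1269 of 16304 were higher (7.78%) and 1123 lower (6.89%). The medians of all measured genes were 0.02 and 0.06. No difference between the 2 kinds of cells was tested. The fibroblast markers had 4 of 6 measured higher in AptCD4-LNT high-score cells (median 1.47) and 5 of 7 in other tumour cells (median 1.41), and the part of such RNA in the values that follow was not tested.

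Secreted immune factors led the genes that were higher. Csf2, GM-CSF, stood at 53.4 CPM in AptCD4-LNT and 10.4 CPM in Untreated high-score cells, a log2 ratio of 2.36 (1.89 to 2.85), against 1.29 in other tumour cells. Ccl2, a chemokine for monocytes, stood at 286 and 77.8 CPM (1.88, 1.71 to 2.05), against 0.54, and Cxcl1, a chemokine for neutrophils, at 2270.4 and 816 CPM (1.48, 1.42 to 1.53), against 0.93. Of 14 measured genes of this list 8 were higher and 3 lower in high-score cells, with a median of 0.71, against 0.47 in other tumour cells. The others of the highest 10 included rapidly induced transcription factor genes and were Egr3 (1.74 in high-score and 0.59 in other tumour cells), Nr4a1 (1.59 and 1.20), Egr2 (1.56 and 0.63), Nr4a2 (1.56 and 0.98), the phosphatase gene Dusp8 (1.74 and 1.12), Tnfaip3, the NF-kB inhibitor A20 (1.75 and 1.10), and S100a4 (1.49 and 1.03). Of 16 AP-1 and immediate early genes 12 were higher and 0 lower in high-score cells, with a median of 0.82, against 7 higher and 0.56 in other tumour cells, and of 8 NF-kB feedback genes 5 were higher, with a median of 0.87, against 2 and 0.41.

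Among the lowest 10 were Lcn2, the siderophore-binding lipocalin 2, at 447 CPM in AptCD4-LNT and 1654 CPM in Untreated high-score cells (-1.89, -1.94 to -1.83), against -0.45 in other tumour cells. Ibsp stood at 105 and 411 CPM (-1.96), against -1.05, Mmp3 at 29.8 and 103 CPM (-1.79), against 0.18, and Hmox1, haem oxygenase 1, at 34.3 and 141 CPM (-2.04), against -0.73. The others were Ulk4 (-2.76 in high-score and -2.30 in other tumour cells), Gbp4, an interferon-induced GTPase (-2.06 and -1.99), Ly6a (-1.84 and -1.37), Ly6c1 (-1.79 and -1.52), Srgn (-1.75 and -1.76) and H2-Ea (-1.70 and -1.60). The macrophage and monocyte markers, from cells that express class II genes, had 5 of 5 measured lower in high-score cells (median -1.86) and 6 of 8 in other tumour cells (median -1.29), and their part in the class II and interferon values was not tested. All 8 class II genes were lower in both kinds of cells, with medians of -1.48 in high-score and -1.34 in other tumour cells. Of 16 interferon response genes 13 were lower and 1 higher in high-score cells, with a median of -1.20, against 14 lower and -0.95 in other tumour cells.

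**Figure D5:**
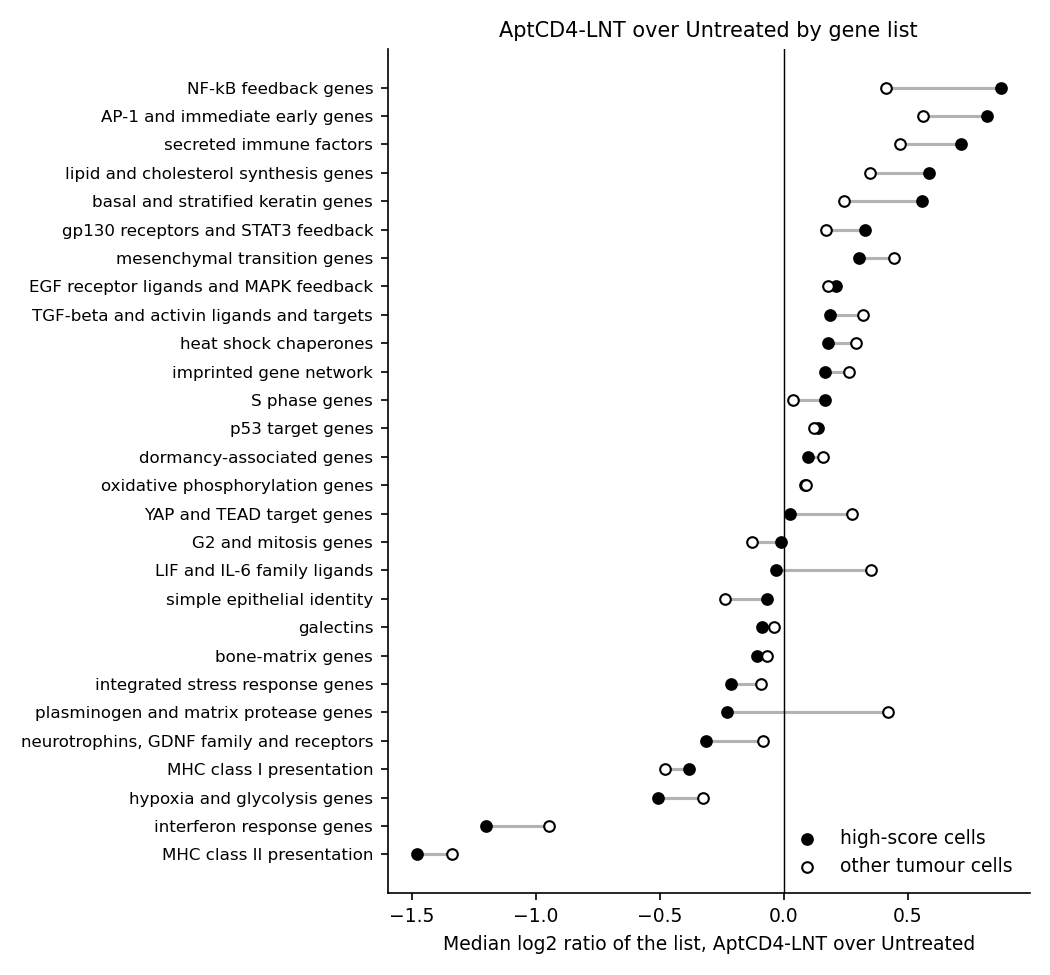
Median log2 ratio of AptCD4-LNT over Untreated (x axis) for each gene list with at least 4 measured genes (y axis), in high-score cells (filled) and other tumour cells (open). NF-kB and AP-1 genes have medians of 0.87 and 0.82 in high-score cells and 0.41 and 0.56 in other tumour cells, class II genes have -1.48 and -1.34, and the protease list lies at -0.23 in high-score and 0.42 in other tumour cells.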

How the data were processed

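Values are raw UMI counts for each gene in each barcode, as deposited, with whole numbers throughout. Cell Ranger 7.2.0 and the mouse genome GRCm39 are named in the submitters' processing notes, and nothing upstream was rerun. The 55357 features were summed to 54456 symbols. Counts were summed over the high-score and the other tumour cells of each library and divided by the summed UMIs, and log2 ratios were given exact conditional binomial intervals. With 1 library per group no test was made. Members and gene lists (28) were chosen with earlier results of these data known. Genes were named by rule, outside the lists as the 15 highest and 15 lowest ratios nearer to 0 of both libraries among genes with at least 20 CPM, and, list genes included, as the 10 highest and 10 lowest between libraries among genes with at least 50 CPM. Some genes that these rules name are not reported here. Blood cells were barcodes with a Ptprc UMI and no Krt8 or Krt18 UMI. Ties at a limit were broken at random. Doublets were kept. Their removal with Scrublet (203 barcodes or 2.27% of the AptCD4-LNT library, 1893 or 9.45% of the Untreated library, and 21 and 439 of the tumour cells) is 1 of 18 alternatives. Intervals were checked on simulated Poisson counts. The simulation shares the assumption of the intervals, so it says nothing of spread between cells or mice. Software was Python 3.11.15, numpy 2.4.6, scipy 1.17.1, pandas 2.3.3, scanpy 1.11.5 and matplotlib 3.10.9.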

Additional observations from a re-analysis of the deposited data

Results flagged for a closer look

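Some genes stood on opposite sides of 0 in the 2 libraries or in the 2 kinds of tumour cells, with both intervals clear of 0. Set over other tumour cells, high-score cells had a log2 ratio for Cxcl2, a neutrophil chemokine, of 1.24 in the AptCD4-LNT and -0.46 in the Untreated library. The monocyte chemokines Ccl2 and Ccl7 were at 0.75 and 1.13 in the AptCD4-LNT library and at -0.59 and -0.78 in the Untreated library, the last on 18 UMIs. Set over the Untreated library, AptCD4-LNT cells had a log2 ratio for Cxcl2 of 1.29 in high-score and -0.41 in other tumour cells. The matrix protease genes Mmp10 and Mmp13 were at -1.46 and -1.44 in high-score cells and at 0.53 and 0.61 in other tumour cells. None of these differences was tested.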

How the results depend on the processing

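No paired analysis was possible because each group has 1 library. The share of high-score cells was higher in the AptCD4-LNT library under every alternative that recomputed it, with a log2 ratio of 1.76 as reported, 1.46 in cells thinned to 3000 UMIs, 2.27 for the highest 5% and 1.19 for the highest 20%, 1.32, 1.31 and 1.96 without Lgals7, Lif and Nr2f1, 2.0 with z-scored genes, 2.08 with at least 6000 UMIs and 1.37 with cells chosen on part of their UMIs. Genes called higher and lower in both libraries numbered 125 and 320 as reported, 82 and 174 with thinned cells, 211 lower without Nr2f1, 44 and 125 with 50 expected UMIs and 811 and 596 without that filter. Between libraries the 891 higher and 645 lower became 363 and 238, and 1997 and 2957, under those filters, and 1098 were lower when the highest 10% was taken within each library. Nr2f1 between libraries in high-score cells, -0.73 as reported, reversed to 0.072 without it in the score and 0.11 on separate UMIs. The cause was not tested. Counting a reversal only where the reported value is past 1.5-fold, no other of 1674 such single-gene values and none of 198 such list medians reversed. Of all 1710 recomputed single-gene values, 7 changed sign. Among these was H19 between libraries in high-score cells, -0.55 as reported. Without H19 in the score it stood at 83.0 CPM in AptCD4-LNT and 28.0 CPM in Untreated cells. Of all 1504 recomputed list medians, 78 changed sign, among them the protease genes between libraries (-0.59 to 0.088) and secreted immune factors in the Untreated library (-0.49 to 0.029).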

Other observations

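Cells of the stroma were not part of the comparisons. Among 630 collagen-positive cells of the AptCD4-LNT library Lif had a UMI in 22.9%, against 6.91% of 391 in the Untreated library, at medians of 12461.5 and 6538 UMIs. In the same cells H19 had a UMI in 11.4% and 13.6%, Nr2f1 in 21.3% and 17.1%, Bdnf in 5.24% and 12.8%, and Lgals7 in 2.22% and 3.07%. The lipid and cholesterol synthesis genes were not called apart in high-score cells of both libraries, but between libraries 5 of 11 were higher in AptCD4-LNT than in Untreated high-score cells, with a median of 0.58, against 1 of 11 and 0.35 in other tumour cells.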
